A study of Mus musculus with 4 samples.

Results

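The heat shock protein and DNAJ chaperones were followed in 4 RNA libraries from mouse colorectal tumour cells in which Aurora-A, the mitotic kinase encoded by Aurka, had been knocked down. Members were all genes whose symbol began with Hspa, Hspb, Hspd, Hspe, Hsph, Hsp90, Dnaja, Dnajb or Dnajc followed by their number, and names of pseudogenes were left out. The rule took 72 of the 51905 genes in the files, of which 27 were Hsp genes, 4 Dnaja, 13 Dnajb and 28 Dnajc genes. The rule itself uses symbols and no measured value.

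CT26 and MC38 are established mouse lines of colorectal cancer, and the labels give both as wild type and of colon origin. Each line received, by lentivirus, a short hairpin RNA directed at GFP (shGFP, the control) or at Aurka (shmaurka-1, the knockdown). All 4 groups therefore carried a lentivirus, and the knockdown rested on 1 hairpin. The study states that infected cells were selected with puromycin. RNA was taken 48 h after seeding, and each condition was 1 library. Pairs of values below give the shGFP library first and the shmaurka-1 library second. CT26 cells were grown in RPMI-1640 and MC38 cells in high-glucose DMEM with HEPES and non-essential amino acids. For its tumour grafts the study matched each line to a mouse strain, and these strains differed. Line, medium and strain therefore cannot be told apart.

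The hairpin target was low in both knockdown libraries. In CT26 the fragments of Aurka numbered 5724 under shGFP and 1093 under shmaurka-1, with a log2 fold change of -2.27 and a 95% interval from -2.36 to -2.17, and in MC38 they numbered 2300 and 413, with -2.45 (-2.60 to -2.30). The libraries held between 22207768 and 23752269 fragments, and the deepest was 1.07 times the shallowest. Labels call CT26 a fibroblast and MC38 an epithelial cell. Epcam, an adhesion molecule of epithelia, had at most 1 fragment in any library, and the epithelial keratin Krt18 had 1516 and 1485 fragments in CT26 against 12 and 14 in MC38. The keratin Krt20 had 434 and 205 fragments in CT26 (log2 fold change -0.96, -1.21 to -0.72) against 2 and 0 in MC38. Krt19 had 6 and 13 against 1 and 2, and Cdx2 had 14 and 3 against 0 and 0. The epithelial markers did not all go one way, since Krt8 had 21 and 13 against 22 and 18, and Vil1, at a locus shared with other genes, had 0 and 0 against 38 and 29. Near the floor, Cdh1 had 1 and 2 against 6 and 4, and Cldn7 had 0 and 1 against 1 and 0. The mesenchymal markers went both ways as well. The collagen Col1a2 had 12156 and 11459 fragments in CT26 against 1426 and 1396 in MC38, whereas Col3a1 had 809 and 571 against 1430 and 1374 and the receptor Pdgfra 219 and 186 against 770 and 499, and Col1a1 was nearly level (2920 and 2127 against 2431 and 2254). Vimentin (Vim), a filament protein of mesenchymal cells, had between 12373 and 15826 fragments in all 4 libraries, and the leukocyte marker Ptprc had at most 3. Both endothelial markers listed were lower in the MC38 knockdown library, at 173 and 81 fragments for Cdh5 (log2 fold change -1.06, -1.46 to -0.68) and 42 and 18 for Pecam1 (-1.15, -2.08 to -0.37), and in CT26 they had 24 and 25 and 14 and 13. The MC38 chaperone values stand beside this difference, and its part in them was not tested. For the 12 mitosis genes listed, the log2 fold changes had medians of 0.71 (CT26) and -0.07 (MC38), so the chaperone values for CT26 stand beside a difference in mitotic transcripts whose part in them was not tested. In bulk RNA, fewer cells with a transcript and less of it per cell cannot be told apart.

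HSP70 proteins (Hspa genes) bind and release unfolded chains in a cycle of ATP hydrolysis, J-domain proteins (Dnaj genes) bring them clients and speed hydrolysis, and HSP110 proteins such as Hsph1 exchange the nucleotide. HSP90 proteins finish the folding of kinases and receptors, small heat shock proteins (Hspb genes) hold unfolded chains, and Hspd1 with Hspe1 forms the folding chamber of mitochondria. Cytosolic heat shock genes are classically induced through HSF1 at heat shock elements, and ER chaperone genes through the unfolded protein response at ER stress response elements.

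Promoters are shown for the ER and heat shock genes because the comparison sets the compartments against each other. RefSeq promoter sequences (GRCm38.p6, from 250 bases before to 50 after a start site) matched 58 of the 72 members. Only the 250 bases before the start site were searched for elements. The ER stress response element was searched as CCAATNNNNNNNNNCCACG, or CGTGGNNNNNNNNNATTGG on the other strand. These letters stood in 0.113% of the 32851 promoters, and in those of 3 members, Hspa5 and Dnajc3 with 1 site each and Hsp90b1 with 2. The 250 bases before each start site are given 5′ to 3′ on the strand of the gene, with the element in capitals.
Hspa5, chr2:34771840-34772089, plus strand: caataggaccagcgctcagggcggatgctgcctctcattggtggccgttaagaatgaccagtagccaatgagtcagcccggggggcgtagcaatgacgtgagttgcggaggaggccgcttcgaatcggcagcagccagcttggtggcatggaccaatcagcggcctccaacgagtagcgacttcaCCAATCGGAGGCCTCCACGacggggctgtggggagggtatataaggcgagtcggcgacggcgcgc
Hsp90b1, chr10:86705445-86705694, minus strand: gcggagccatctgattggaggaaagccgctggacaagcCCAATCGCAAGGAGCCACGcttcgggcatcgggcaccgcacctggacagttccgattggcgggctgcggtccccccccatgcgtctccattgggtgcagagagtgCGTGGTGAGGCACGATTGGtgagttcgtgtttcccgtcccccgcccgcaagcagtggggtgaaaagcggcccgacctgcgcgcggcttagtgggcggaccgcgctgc
Dnajc3, chr14:118937682-118937931, plus strand: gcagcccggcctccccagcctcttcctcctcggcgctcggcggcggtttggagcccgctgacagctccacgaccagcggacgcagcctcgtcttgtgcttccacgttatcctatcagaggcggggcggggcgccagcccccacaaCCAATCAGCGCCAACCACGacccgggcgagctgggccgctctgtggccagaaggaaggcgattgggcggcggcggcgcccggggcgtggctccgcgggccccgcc

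The heat shock element was searched as 3 units, GAANNTTCNNGAA or TTCNNGAANNTTC, and as 2 units, GAANNTTC or TTCNNGAA, on both strands, and the longer form contains the shorter. The form with 3 units stood in 0.466% of promoters and in those of 3 members, Dnajb6, Hspd1 and Hspe1. Hspd1 and Hspe1 are transcribed away from each other, and their element is the same stretch of chromosome 1. The form with 2 units stood in 12.8% of promoters, and 14 of the 58 matched members (24.1%) had it, beside 14.5% of all genes in the table. The windows of 30 bases below show these units in capitals for the mitochondrial pair and for 5 genes of the stress-inducible list, again in the direction of the gene. Only genes with a match are shown. Dnajb1, Hsp90aa1, Hspa4l and Hspb8 of the same list had no match, or no promoter sequence to search. In other lists, Dnaja4, Dnajb6, Dnajc10, Dnajc27, Hspb3 and Hspb6 had the form with 2 units. A match is a match of letters only.
Hspe1, chr1:55088053-55088082, plus strand: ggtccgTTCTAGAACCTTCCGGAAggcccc
Hsph1, chr5:149636351-149636380, minus strand: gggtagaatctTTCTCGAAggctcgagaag
Dnaja1, chr4:40722333-40722362, plus strand: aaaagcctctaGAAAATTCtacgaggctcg
Dnajb4, chr3:152193846-152193875, minus strand: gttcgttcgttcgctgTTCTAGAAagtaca
Hspa1b, chr17:34959324-34959353, minus strand: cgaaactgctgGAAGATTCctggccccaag
Hspb1, chr5:135887801-135887830, plus strand: aGAAGTTTCcagatgggggcaGAACCTTCc

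Averaged over the 4 libraries, the most abundant chaperone transcripts were those of the mitochondria, the ER and the constitutive HSP90, with a different order in each line. On the FPKM scale (fragments per length of transcript and depth of library, which allows genes to be compared), the mean over the 4 libraries was 1224 for Hspa9, the mitochondrial HSP70, 922 for Hspa5, the HSP70 of the ER also known as BiP, 834 for Hspd1, 807 for Hsp90ab1, the constitutive cytosolic HSP90, and 444 for Hsp90b1, the HSP90 of the ER. In CT26 shGFP the highest levels were 1928 for Hspa9, 1223 for Hspa5 and 959 for Hspd1, while in MC38 shGFP they were 966 for Hsp90ab1, 686 for Hspd1 and 592 for Hspa9, and the cytosolic Hspa8 at 468 lay above Hsp90b1 at 369. Together the 72 members took 1.75% and 1.79% of fragments in CT26 and 1.63% and 1.62% in MC38. The share thus lay higher in the CT26 libraries than in the MC38 libraries and was nearly level between control and knockdown.

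**Figure D1:**
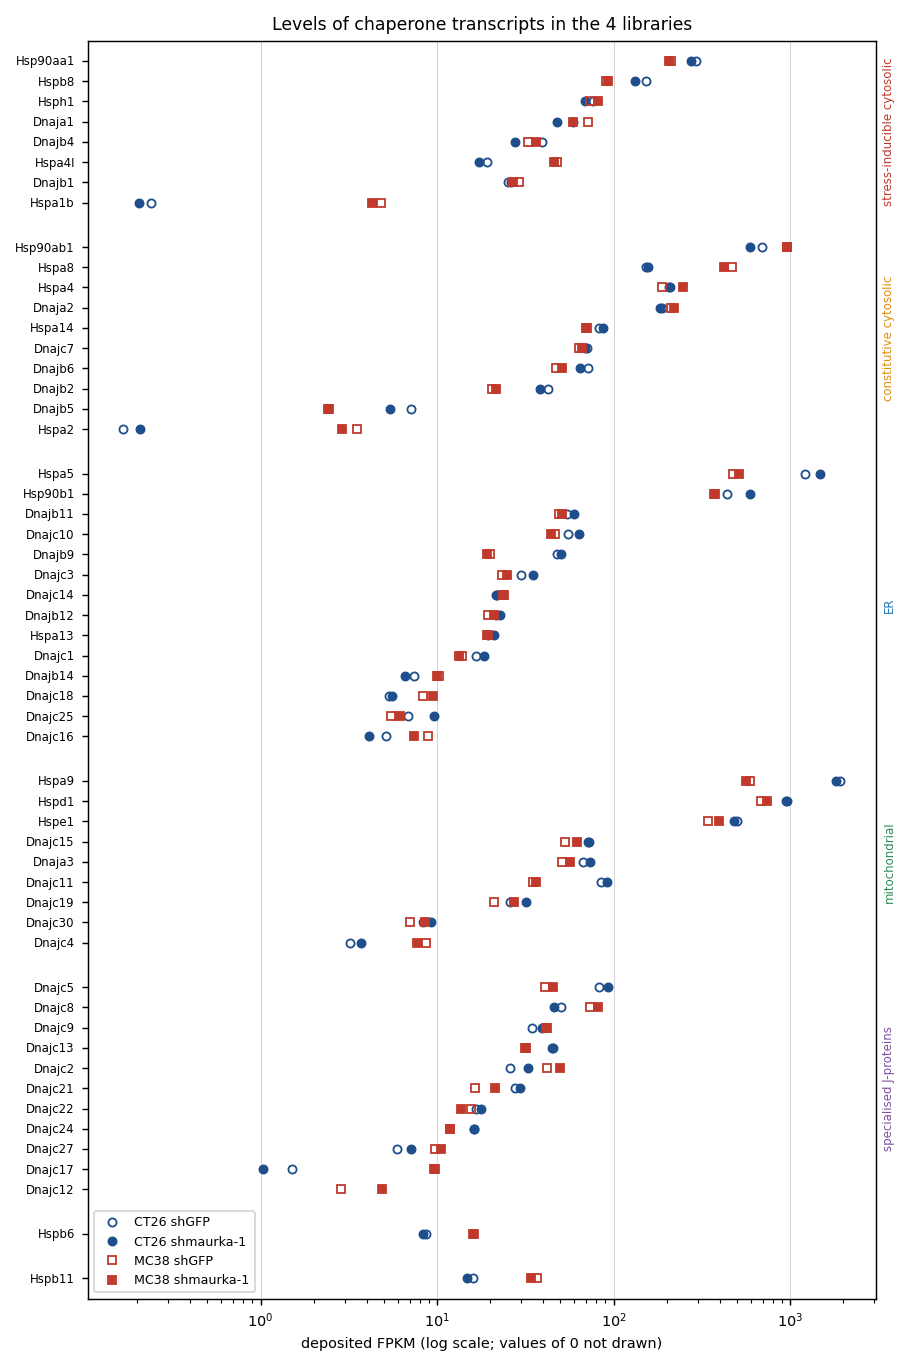
Deposited FPKM on a log axis for the 54 members with a mean of at least 1 FPKM, by list, with circles for CT26, squares for MC38, open symbols for shGFP and filled symbols for shmaurka-1 (1 library each, values of 0 not drawn). Open and filled symbols of a line lie close together for most members, and Hspa1b, Hspa2 and Dnajc17 lie far lower in CT26 than in MC38.

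Of the 72 members, 54 reached 10 counts on average in each line and were compared, and 18 did not. The 18 held 4 members with no fragment in any library (Hspb9, Dnajb7, Dnajb8 and Dnajc5g), which allows up to 3 fragments in each, and with these 4 included, 10 of the 18 had at most 3 fragments in every library. Among the compared members, 24 lay at a locus that the files share with other genes, so their values can hold fragments of a neighbour.

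Within each line, folds are ratios of library-scaled counts with 1 count added, and the 95% interval is an exact binomial one on the fragments of that pair of libraries. It covers counting error only and compares libraries, not conditions. The fold thresholds of the study are above 1.5 and below 0.6. In CT26, 1 of 54 members was above 1.5-fold, beside 3.20% of the 11928 genes compared, and 0 were below 0.6-fold, beside 2.58%. In MC38, 0 of 54 were above 1.5-fold, beside 2.47%, and 0 were below 0.6-fold, beside 1.03%. The single member was Hspa12a, an atypical HSP70, with 17 and 26 fragments in CT26 and a log2 fold change of 0.70, whose interval of -0.20 to 1.71 includes no change. Over the 54 members the log2 fold changes had medians of 0.03 (CT26) and 0.05 (MC38), and over all genes compared -0.01 and -0.00.

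At this depth smaller differences were measurable for abundant transcripts. Whether an interval excludes no change thus depends on the number of fragments. The shares over all genes, here and below, are not matched to the members by abundance. The interval lay above no change for 14 members in CT26 (22.1% of all genes) and for 21 in MC38 (22.7%), and below it for 14 members in CT26 (21.1%) and 9 in MC38 (22.3%). Intervals lay above no change in both lines for 8 members, Dnaja3, Dnajc2, Dnajc3, Dnajc5, Dnajc25, Hspa4, Hspa5 and Hspd1, which is 14.8% of 54 beside 8.58% of all genes. They lay below it in both lines for 5 members, Dnaja1, Dnajc16, Hsp90aa1, Hsp90ab1 and Hspa9, which is 9.26% beside 7.49%. In 6 members, or 11.1% beside 7.44%, they lay on opposite sides.

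**Figure D2:**
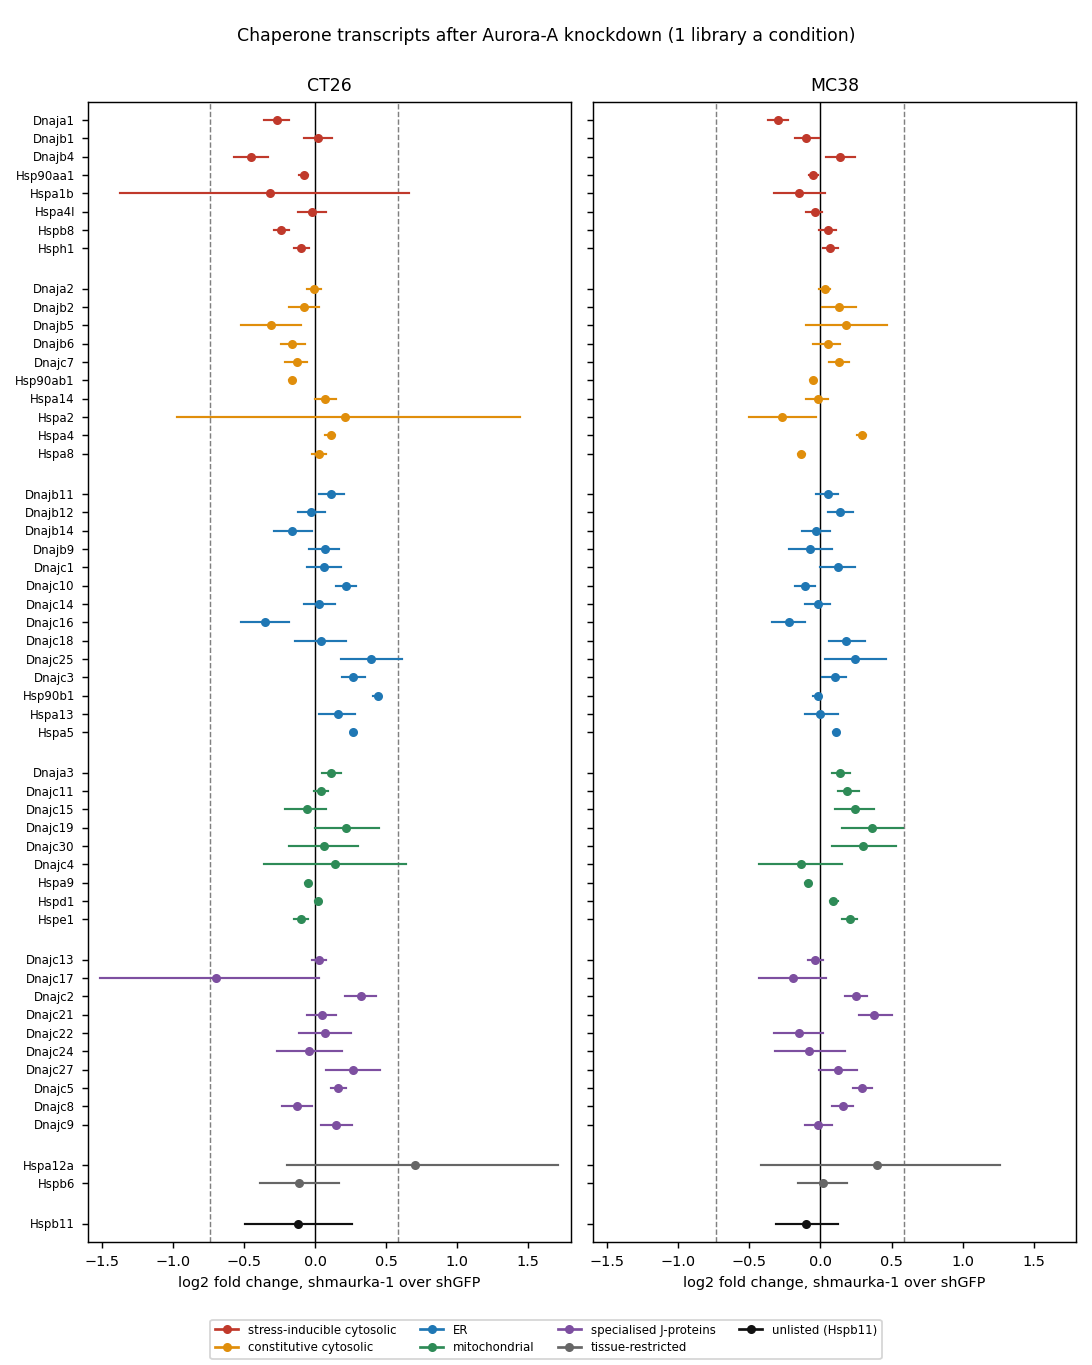
Log2 fold change, shmaurka-1 over shGFP, of the 54 compared members in CT26 (left) and MC38 (right), with exact 95% counting intervals as bars, coloured by list, and dashed lines at 1.5-fold and 0.6-fold. In CT26 only the point of Hspa12a lies past a dashed line, and its bar crosses 0, as shown by the interval of -0.20 to 1.71.

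Among the stress-inducible cytosolic chaperones, most values were lower in the CT26 knockdown library, whereas the MC38 values went both ways. The medians of their log2 fold changes were -0.17 (CT26) and -0.05 (MC38), and the CT26 median was -0.10 with a filter of 50 counts and -0.27 with none. Of the 8 of 10 listed that were compared, 1 was above 1-fold in CT26, where 49.1% of all genes were, and 3 were in MC38, where 49.9% were. In CT26 the interval lay below no change for 5 and above it for 0 (21.1% and 22.1% of all genes), and in MC38 it lay below for 3 and above for 2 (22.3% and 22.7%).

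Dnaja1, a J-protein that works with cytosolic HSP70, was lower in the knockdown library of both lines. Its fragments numbered 2263 and 1726 in CT26 and 3508 and 2793 in MC38, and its locus (GRCm38 chr4:40720154-40757923) also holds Smu1 and 2 further genes. Its log2 fold changes were -0.27 (-0.36 to -0.18) and -0.30 (-0.37 to -0.23). Hsp90aa1, the stress-inducible cytosolic HSP90, stood at 20051, 17398, 17722 and 16816 fragments in the same order, with log2 fold changes of -0.08 (-0.11 to -0.05) and -0.05 (-0.08 to -0.02).

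Dnajb4, a J-protein of the same class as Dnajb1, had the largest gap between the lines among the 8 compared stress-inducible genes. At chr3:152178511-152210302, it had 1379 and 930 fragments in CT26 against 1445 and 1560 in MC38, so the CT26 knockdown library was the low one of the 4. The log2 fold changes were -0.45 (-0.57 to -0.33) and 0.14 (0.04 to 0.24). For Hsph1, the cytosolic HSP110, the counts were 5540, 4766, 6501 and 6700, and the log2 fold changes of -0.10 (-0.15 to -0.04) and 0.07 (0.02 to 0.12) also had opposite signs. Hspb8, a small heat shock protein that acts with Bag3, had 5783 and 4517 fragments in CT26 and 4089 and 4154 in MC38, log2 fold changes of -0.24 (-0.29 to -0.18) and 0.05 (-0.01 to 0.11). For these 3 genes no test of the line difference was made.

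Dnajb1, the main stress-induced J-protein of the cytosol, was nearly level in CT26. It had 1761 and 1641 fragments there, a log2 fold change of 0.02 (-0.08 to 0.12), and 2412 and 2212 in MC38, a log2 fold change of -0.10 (-0.18 to -0.01). Hspa4l, an HSP110 relative, had 1838 and 1669 fragments in CT26 and 5221 and 4964 in MC38, and both intervals included no change. In FPKM the CT26 value of Hspa4l was -0.15 and -0.16 with pseudocounts of 1 and 0.1, outside its interval of -0.12 to 0.08. The classical heat-induced HSP70 genes were nearly silent in CT26. Hspa1b had 22 and 16 fragments in CT26 against 531 and 469 in MC38, with log2 fold changes of -0.32 (-1.37 to 0.66) and -0.15 (-0.33 to 0.03). Hspa1a had 1, 0, 1 and 0 fragments in the order CT26 shGFP, CT26 shmaurka-1, MC38 shGFP and MC38 shmaurka-1, but Hspa1a and Hspa1b are near-identical copies and the counting could have given the fragments of one to the other. Hspb1, the small heat shock protein HSP27, had 3, 2, 3 and 7 fragments in that order.

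The constitutive cytosolic chaperones went both ways. In CT26 the interval lay above no change for 1 and below it for 4 (22.1% and 21.1% of all genes), and in MC38 above for 3 and below for 3 (22.7% and 22.3%). Their median was -0.04 in CT26 and 0.04 in MC38 over 10 of 11 genes, and Dnaja4 was not compared, with at most 5 fragments in a library. Hsp90ab1 had 42898 and 35233 fragments in CT26 and 78701 and 74362 in MC38, log2 fold changes of -0.16 (-0.18 to -0.14) and -0.05 (-0.07 to -0.04). Its MC38 value was -0.00 in FPKM. Hspa4, an HSP110 that serves as nucleotide exchange factor, had intervals above no change in both lines, with 15643 and 18727 fragments in MC38 and a log2 fold change of 0.29 (0.26 to 0.32), beside 13361 and 13259 in CT26 and a log2 fold change of 0.11 (0.07 to 0.14). In FPKM the CT26 value of Hspa4 was 0.02. Hspa8, the constitutive HSP70, had log2 fold changes of 0.03 (-0.02 to 0.08) in CT26 and -0.14 (-0.16 to -0.11) in MC38, and snoRNA genes lie in its locus. The other values of the list ran from -0.31 (Dnajb5, a J-protein) to 0.21 (Hspa2, a testis-enriched HSP70) in CT26, and from -0.27 (Hspa2) to 0.18 (Dnajb5) in MC38. The MC38 interval of Dnajb5 ran from -0.10 to 0.47, and its MC38 value had the opposite sign in FPKM (-0.01 and -0.02 with pseudocounts of 1 and 0.1). Hspa2 had only 13 and 14 fragments in CT26, and its interval there ran from -0.97 to 1.44.

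Most ER chaperones were higher in the CT26 knockdown library, with Hsp90b1 first by log2 fold change. Of the 14 ER members, 11 were above 1-fold in CT26, beside 49.1% of all genes, and 8 in MC38, beside 49.9%, with median log2 fold changes of 0.09 and 0.03, and the 6 core members had medians of 0.24 and 0.01. In CT26 the interval lay above no change for 7 of the 14 and below it for 2 (22.1% and 21.1% of all genes), and in MC38 for 5 and 2 (22.7% and 22.3%). The core members were Hspa5, Hsp90b1, Dnajc3, Dnajc10, Dnajb11 and Dnajb9. They were above 1-fold in 6 of 6 cases in CT26, and the interval lay above no change for 5. In MC38 they were above 1-fold in 3 of 6, and the interval lay above no change for 2 and below it for 1. The core list was drawn up with earlier results of these data known, so its counts and medians only describe these libraries. The FPKM of the 14 genes summed to 1957 and 2381 in CT26, a ratio of 1.22, and to 1092 and 1142 in MC38, a ratio of 1.05. The same ratio was 0.894 and 0.986 for the stress-inducible list, 0.927 and 1.02 for the constitutive list and 0.966 and 1.06 for the mitochondrial list. Sums of this kind follow their most abundant genes.

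Hsp90b1, which folds integrins and Toll-like receptors in the ER, had 27056 and 33708 fragments in CT26, a log2 fold change of 0.44 (0.41 to 0.46). Its locus, chr10:86685525-86705509, also holds 3 further genes. In MC38 it had 27990 and 27006, a log2 fold change of -0.02 (-0.05 to 0.00), and 0.03 in FPKM. The CT26 knockdown library thus stood above the other 3. Hspa5 (chr2:34771970-34777547), the central HSP70 of the ER lumen, had 70926 and 78519 fragments in CT26 and 33059 and 34949 in MC38, log2 fold changes of 0.27 (0.25 to 0.28) and 0.11 (0.09 to 0.13). Dnajc3, a J-protein of Hspa5 that is also known as an inhibitor of the stress kinase PERK, had 2344 and 2596 fragments in CT26 and 2243 and 2350 in MC38. Its log2 fold changes were 0.27 (0.19 to 0.35) and 0.10 (0.01 to 0.18). These are the 3 members whose promoters, printed above, hold the letters of the ER stress response element. Whether the letters bear on these values was not tested, and 14 of the 72 members had no promoter sequence to search.

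The remaining core ER genes had smaller values or values of mixed sign. Dnajc10, a J-protein with disulfide reductase activity, had 3589 and 3844 fragments in CT26 and 3665 and 3323 in MC38, log2 fold changes of 0.22 (0.15 to 0.29) and -0.11 (-0.18 to -0.04). Dnajb11, a soluble cofactor of Hspa5, had log2 fold changes of 0.11 (0.03 to 0.20) and 0.05 (-0.03 to 0.12). Dnajb9, a J-protein induced by the unfolded protein response, had 0.07 (-0.04 to 0.17) and -0.07 (-0.22 to 0.08). Outside the core genes, Dnajc25 had log2 fold changes of 0.39 (0.18 to 0.61) in CT26 and 0.24 (0.03 to 0.46) in MC38, at a locus it shares with Gng10, and Dnajc16 had -0.35 (-0.52 to -0.18) and -0.22 (-0.34 to -0.11). The other 6 ran from -0.16 (Dnajb14) to 0.16 (Hspa13) in CT26 and from -0.03 (Dnajb14) to 0.18 (Dnajc18) in MC38.

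A list of 11 ER folding factors that are no members was drawn up for comparison. Their median was 0.19 in CT26, with 9 intervals above no change and 1 below, and 0.09 in MC38, with 6 above and 3 below, and the shares over all genes are those given for the ER members. The disulfide isomerase gene Pdia6 had 0.29 (0.23 to 0.34) and -0.08 (-0.12 to -0.03), and Calr, a chaperone of glycoproteins, had -0.05 (-0.07 to -0.03) and 0.15 (0.12 to 0.18). The list thus held genes with either sign in each line. By edgeR's quasi-likelihood test for an effect common to both lines, 0 of 11 passed, beside 2.81% of all genes. At an unadjusted p under 0.05 in that test there were 3, beside 12.3% of all genes.

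Mitochondrial chaperones had more intervals above no change in MC38 than in CT26, a difference that was not tested. The median of the 9 of 10 compared was 0.04 in CT26 and 0.19 in MC38, and in FPKM it was 0.12 and 0.15. In CT26 the interval lay above no change for 2 and below it for 2, and in MC38 above for 7 and below for 1, beside 22.1% above and 21.1% below over all genes in CT26 and 22.7% and 22.3% in MC38. Dnajc28 was not compared, with at most 5 fragments in a library.

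Hspa9, which pulls precursor proteins into the matrix, was the most abundant member in CT26 and the third in MC38, and was slightly lower in both knockdown libraries. It had 104018 and 92211 fragments in CT26 and 39499 and 36277 in MC38, log2 fold changes of -0.05 (-0.07 to -0.04) and -0.09 (-0.11 to -0.07). Hspd1, the HSP60 chaperonin, had 37030 and 34631 fragments in CT26 and 32339 and 33823 in MC38, log2 fold changes of 0.02 (0.00 to 0.04) and 0.09 (0.07 to 0.12). The CT26 value of Hspd1 had the opposite sign, -0.01, in FPKM. Its lid Hspe1 had 6371 and 5475 fragments in CT26 and 5266 and 5963 in MC38, and its log2 fold changes of -0.10 (-0.15 to -0.05) and 0.21 (0.15 to 0.26) had opposite signs. Both genes share a locus in the files, and the pseudogene row Hspd1-ps3 held 2932, 2816, 2606 and 2793 fragments that may come from Hspd1.

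Dnaja3, the main J-protein of the matrix, had log2 fold changes of 0.11 (0.05 to 0.18) in CT26 and 0.14 (0.08 to 0.21) in MC38. Dnajc19, a J-protein of the import motor, had 309 and 332 fragments in CT26 and 315 and 397 in MC38, log2 fold changes of 0.22 (-0.00 to 0.45) and 0.36 (0.15 to 0.58). It shares its locus with Fxr1, and the row Dnajc19-ps held between 17 and 34 fragments. Dnajc15, related to Dnajc19, had -0.06 (-0.21 to 0.08) and 0.24 (0.10 to 0.38), Dnajc30 had 0.06 (-0.18 to 0.30) and 0.30 (0.08 to 0.53), and Dnajc11, an inner membrane organiser, had 0.04 (-0.01 to 0.09) and 0.19 (0.12 to 0.27). In FPKM the values of Dnajc11 were 0.12 in CT26 and 0.06 in MC38, the other way round. Dnajc4, with 69 and 70 fragments in CT26, had intervals that included no change in both lines. Trap1, the mitochondrial HSP90 and no member by its symbol, had 0.20 (0.13 to 0.27) and 0.34 (0.28 to 0.40).

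**Figure D3:**
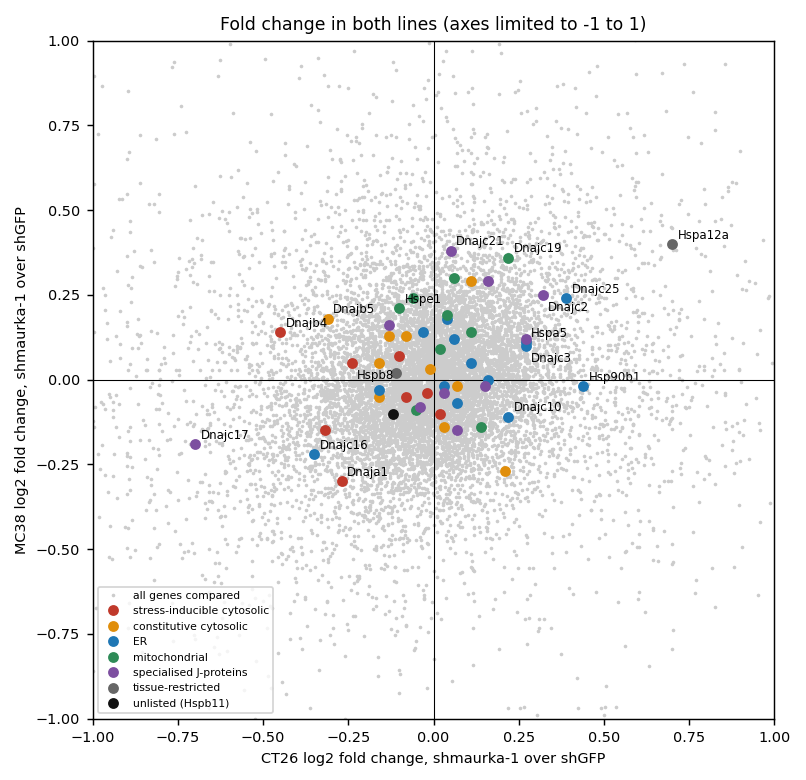
Log2 fold change, shmaurka-1 over shGFP, in CT26 (horizontal) against MC38 (vertical) for the 54 compared members, coloured by list, over all 11928 genes in grey, with both axes limited to -1 to 1. Hsp90b1 lies at 0.44 and -0.02, Dnajb4 at -0.45 and 0.14 and Dnaja1 at -0.27 and -0.30, all inside the grey cloud.

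For J-proteins with specialised tasks the log2 fold changes had medians of 0.06 (CT26) and 0.05 (MC38) over 10 of 12 genes. Dnajc2, which sits on the ribosome beside nascent chains, had 1210 and 1390 fragments in CT26 and 2390 and 2781 in MC38, log2 fold changes of 0.32 (0.21 to 0.43) and 0.25 (0.17 to 0.33). Dnajc5, the cysteine string protein of secretory vesicles, had 0.16 (0.11 to 0.22) and 0.29 (0.23 to 0.36). In FPKM the MC38 value of Dnajc5 was 0.15. Dnajc21, a ribosome assembly factor, had 0.05 (-0.06 to 0.15) and 0.38 (0.27 to 0.50), the highest MC38 value of the list. Dnajc8, a splicing factor, had -0.13 (-0.23 to -0.02) and 0.16 (0.08 to 0.23). The lowest CT26 value of the list was that of Dnajc17, with 43 and 24 fragments and a log2 fold change of -0.70 (-1.51 to 0.03). Dnajc6, a J-protein of clathrin uncoating, was not compared because it had 0 and 1 fragments in CT26, and in MC38 it had 49 and 28, a log2 fold change of -0.76 (-1.50 to -0.08).

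Of the 14 tissue-restricted genes, 2 were compared, Hspa12a (above) and Hspb6, a small heat shock protein of muscle, with 238 and 203 fragments in CT26 and 536 and 532 in MC38. Hspb11, which has a heat shock name but is a subunit of intraflagellar transport, had 132 and 112 fragments in CT26 and 371 and 340 in MC38. All intervals of these 3 genes included no change.

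A shared effect of knockdown in both lines was tested over all genes with edgeR's quasi-likelihood test, with line as a block and p-values adjusted by the Benjamini-Hochberg method. It called 335 of 11928 genes (2.81%), 199 higher (1.67%) and 136 lower (1.14%), and 0 of the 54 members. At an unadjusted p under 0.05 there were 8 members (14.8%), beside 12.3% of all genes. The smallest adjusted p of a member, by this edgeR test, was 0.132 for Dnaja1, with a common log2 fold change of -0.28 (SE 0.10) that was lower in 2 of 2 lines. The others of the 8 were Dnajc2 (0.28, SE 0.11, edgeR adjusted p = 0.160), Hsp90b1 (0.21, SE 0.09, edgeR adjusted p = 0.230), Dnajc5, Hspa5, Hspa4, Dnajc16 and Dnajc25. DESeq2's Wald test also called 0 members, with 1 at an unadjusted p under 0.05 and a smallest adjusted p of 0.975. With 1 residual degree of freedom the spread in edgeR came from the trend over all genes, and nothing in the labels gives separate cultures.

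The cofactors of these chaperones, listed by name, were described in the same way. HSP70 exchange factors and cochaperones had -0.06 in CT26 and 0.00 in MC38 over 13 genes, HSP90 cochaperones with Trap1 had 0.01 and 0.02 over 9, and the cytosolic chaperonin TRiC had 0.10 and 0.06 over 8. Of the TRiC genes, 7 of 8 were above 1-fold in CT26 (49.1% of all genes) and 5 in MC38 (49.9%). Their interval lay above no change for 6 and below it for 1 in CT26 (22.1% and 21.1% of all genes), and above for 4 and below for 2 in MC38 (22.7% and 22.3%). TRiC genes had between 7708 and 30793 fragments in a library, so small differences can exclude no change. For the HSP70 list the interval lay above for 1 and below for 5 in CT26, and above for 3 and below for 3 in MC38. For the HSP90 list it lay above for 3 and below for 2 in CT26, and above for 2 and below for 3 in MC38. Hsf1, the main heat shock factor, had 873 and 964 fragments in CT26 and 922 and 850 in MC38, log2 fold changes of 0.26 (0.13 to 0.40) and -0.09 (-0.22 to 0.05). In all, 0 genes of these 4 lists passed the common edgeR test (2.81% of all genes), and 2 had an unadjusted p under 0.05 (12.3% of all genes).

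More members stood apart between the lines than between control and knockdown. Of the 54 compared members, 12 (22.2%) differed over 2-fold between MC38 and CT26 in both the shGFP and the shmaurka-1 libraries, beside 28.4% of all genes. Higher in MC38 were Hspa2 (21.4-fold between controls and 15.2-fold between knockdowns), Hspa1b (20.5-fold and 23.3-fold), Dnajc17 (6.35-fold and 9.15-fold), Hspa8 (3.77-fold and 3.36-fold), Dnajc4, Hspa4l and Hspb11. Higher in CT26 were Hspa9 (3.11-fold and 3.20-fold), Dnajc11 (2.75-fold and 2.47-fold), Hspa5 (2.53-fold and 2.82-fold), Dnajb9 (2.35-fold and 2.58-fold) and Dnajc5 (2.21-fold and 2.02-fold).

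Hspa9, Hspa5 and Hspa8, the main HSP70 genes of mitochondria, ER and cytosol, kept their order in both lines but were spaced differently. In CT26 shGFP the FPKM levels were 1928 for Hspa9, 1223 for Hspa5 and 153 for Hspa8, and in MC38 shGFP they were 592, 476 and 468. In the knockdown libraries they were 1814, 1473 and 156 in CT26 and 563, 516 and 425 in MC38. Dnajc12, which assists aromatic amino acid hydroxylases, had 0 and 0 fragments in CT26 and 175 and 201 in MC38, so it was at least 49.4-fold and 53.3-fold higher in MC38 against a floor of 3 fragments per library. Its MC38 values were 2.86 and 4.86 in FPKM, farther apart than the fragments, with an interval of -0.07 to 0.53 for the log2 fold change of fragments. Dnajb13, a sperm flagellum J-protein, had 0 and 0 against 19 and 19, at least 5.37-fold and 5.04-fold higher, and shares its locus with Ucp2. Each condition was 1 library, and no test of a line difference was made.

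**Figure D4:**
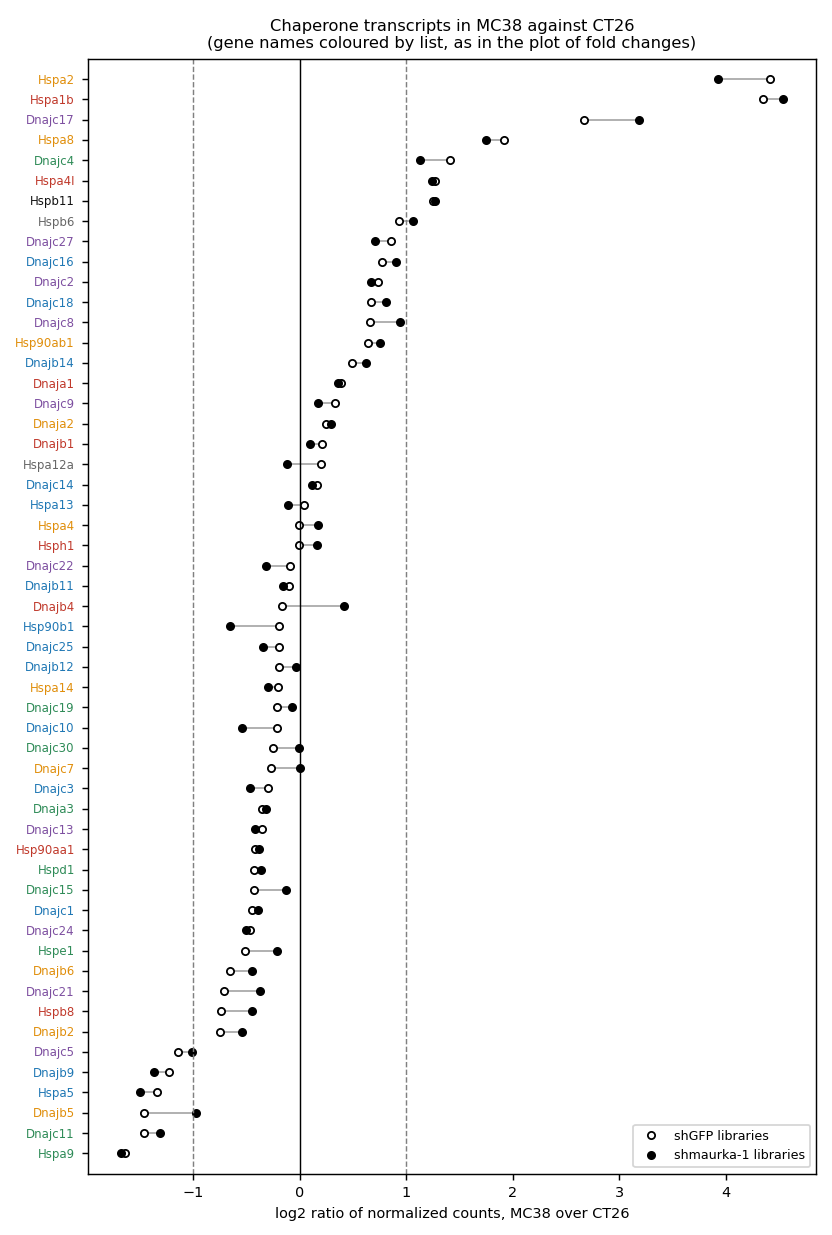
Log2 ratio of normalized counts, MC38 over CT26, for the 54 compared members, with open circles for the shGFP libraries, filled circles for the shmaurka-1 libraries and dashed lines at 2-fold. Hspa2 and Hspa1b lie farthest to the right and Hspa9 farthest to the left in both pairs of libraries.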

How the data were processed

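RNA of 4 libraries was prepared with a strand-specific kit (Agilent SureSelect). Per the submitters' processing notes, the tools were Trimmomatic 0.36, HISAT2, Cufflinks 2.2.1 and Cuffdiff, and the notes name GRCm39. Of 18099 genes checked, 18066 overlapped their namesake in GRCm38 and 1729 in GRCm39, so coordinates are GRCm38. The strand setting of the counting is not given in the sources used here.

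For each gene and library the deposited files hold 1 estimated count and 1 FPKM value. The estimated counts had been scaled between libraries by the authors, and values were whole multiples of a step of 1.06 (CT26 shGFP), 1.17 (CT26 shmaurka-1), 0.885 (MC38 shGFP) and 0.901 (MC38 shmaurka-1). Divided by the step, 97.1% to 97.7% of values were whole within 0.05. These whole numbers are called fragments. The deposited FPKM values keep no depth by themselves and were used for levels, sums and alternatives.

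Folds within a line used the deposited counts, scaled by library size and TMM (edgeR 4.0.16, R 4.3.3) with 1 count added. The common effect was tested on counts rounded to whole numbers, with line as the block that pairs each knockdown library with its control. The test scripts were checked on simulated data. Alternatives were DESeq2 1.42.0, other scalings, filters, pseudocounts and thresholds. The use of whole fragments in edgeR was an alternative chosen after seeing the data.

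Genes named are the stress-inducible, core ER and core mitochondrial lists, the 5 members with the highest mean FPKM, members past a fold threshold with at least 50 counts, called members, members over 1.2-fold in opposite directions, the extremes of other lists, and Aurka. Others were chosen after their values were seen. Members and lists were chosen with earlier results of these data known.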

Additional observations from a re-analysis of the deposited data

Results flagged for a closer look

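In 6 members the counting intervals of CT26 and MC38 lay on opposite sides of no change, and whether the lines differ was not tested. For Dnajb4 the log2 fold changes were -0.45 (CT26) and 0.14 (MC38). Hspe1 had -0.10 and 0.21, and Hsph1 had -0.10 and 0.07. Dnajc7 had -0.13 and 0.13, Dnajc8 had -0.13 and 0.16, and Dnajc10 had 0.22 and -0.11. In FPKM, Dnajc7 was nearer to no change in both lines, at -0.04 and 0.06. Each value compares 1 library with 1 other, and 7.44% of all genes compared had intervals on opposite sides.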

How the results depend on the processing

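With 1 library a condition, the fold within a line has no replicate check, and intervals hold counting error only. Members above 1.5-fold in CT26 numbered 0 in place of 1 in FPKM with a pseudocount of 1 or 0.1, with a mean of at least 50 counts, or where the interval also had to exclude no change, and 3 with no filter on low counts. Members below 0.6-fold in CT26 numbered 4 with no filter and 1 with a lower threshold of 1/1.5. In MC38, 4 members were above 1.5-fold and 4 below 0.6-fold with no filter. Those let in without the filter had at most 11 fragments in a library except Dnajc6, with 49 and 28 in MC38. Of 540 alternative fold values of the 54 compared members, 20 had another sign, 16 of them in FPKM, and where the interval had excluded no change this was so only for Hspd1 in CT26 (-0.01 in FPKM with either pseudocount). Beside these FPKM values of Hspd1, 40 of the 540 values moved outside the interval, among them Hspd1 with total-count scaling (0.00 in CT26 and 0.07 in MC38) and Dnajc1 in MC38 (from 0.12 to -0.05 in FPKM). None of 112 alternative list medians left the interval of its median over genes, which was wide (-0.45 to 0.02 for the stress-inducible list in CT26).

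edgeR and DESeq2 called 0 members under each setting run, and the smallest adjusted p of a member was 0.0860 (edgeR, total-count scaling, Dnaja1). Over all genes, edgeR called 335 (199 higher), 320 with total-count scaling (157 higher), 77 with the filter at 50 counts and 273 without a filter, and DESeq2 called 29. Without the line as a block, which pairs the libraries, edgeR called 0 genes, and 0 members had an unadjusted p under 0.05.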

Other observations

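Among heat shock factors, Hsf4 had 257 and 231 fragments in CT26 shGFP and shmaurka-1 and 3 and 3 in MC38, while Hsf2 had 683 and 567 in CT26 and 1527 and 1285 in MC38. Bag2 and Bag5, exchange factors of HSP70, had log2 fold changes of -0.24 (-0.39 to -0.10) and -0.09 (-0.18 to -0.01) in CT26 and 0.24 (0.16 to 0.33) and 0.29 (0.16 to 0.41) in MC38. Hyou1, the HSP110 of the ER, had 6746 and 7601 fragments in CT26, a log2 fold change of 0.29 (0.25 to 0.34), and 8506 and 8178 in MC38, a log2 fold change of -0.03 (-0.07 to 0.02). These 5 genes were chosen after their values were seen, and no difference between the lines was tested.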
